A study of Mus musculus with 16 samples.

Results

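The 6 vehicle arrays of the series, of 16 in all, describe the bulk transcriptome of orthotopic pancreatic tumours in mice that did not receive the study compound. Members were chosen by the treatment label, which reads Vehicle for these 6 samples and ADH-503 for the other 10, and no measured value entered the choice. All samples share the strain C57BL/6, the label Female and the tissue, a tumour of an orthotopic pancreatic cancer model, and the vehicle samples carry control as their time point. The labels used here name no tumour cell line, engineered allele, mouse age or tumour age. They also do not tie samples to separate animals, so the spread between arrays may be technical in part. ADH-503 is a small-molecule agonist of CD11b, and the series asks how the drug changes the tumour transcriptome. The vehicle values describe the tumours without it, and no treated group was compared with the vehicle group. Treated arrays are used only to see whether a spread or pattern was present there too.

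An orthotopic pancreatic tumour grows within the pancreas, so a whole-tumour sample can hold malignant epithelium, leukocytes, fibroblasts and vessels together with acinar and islet tissue of the host. CD11b, encoded by Itgam, pairs with CD18, encoded by Itgb2, to form the integrin Mac-1 on monocytes, macrophages, granulocytes and some dendritic cells. Pancreatic ductal tumours are known for a dense stroma rich in collagen and in myeloid cells. Chemokines are secreted proteins that guide leukocytes through receptors on their surface.

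Levels are the deposited log2 values, so a difference of 1 is a 2-fold difference in spot signal. Each gene symbol is represented by its probe with the highest mean over all 16 arrays. A gene was called detected where the scanner software marked its spot as well above background in 3 or more vehicle tumours. It was called bright where its mean lay in the top 10% of all genes (14.85 or more). A gene named as not detected had no such spot on any vehicle array. Brightness depends on the probe as well as on the transcript, so brightness between genes is no measure of relative transcript amount. Bulk RNA cannot tell fewer cells of a type from less RNA per cell. On the vehicle arrays 77.6% to 81.3% of spots were well above background and none was saturated, and pairs of vehicle arrays correlated across genes at r = 0.965 to 0.977. Vehicle 1 was hybridised on slide 1 and vehicle 2 to 6 on slide 2, so the slide cannot be told apart from vehicle 1 within the group. The title of vehicle 2 carries the same ID as the title of 1 array at 48 h, while its description carries another, so the main spreads that vehicle 2 sets are also given without it.

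Of 27308 genes, 22289 were detected, which is 81.6%, and 20276 were well above background on all 6 arrays. Another 3227 genes, 11.8%, were well above background on none. The SD over the 6 arrays had a median of 0.29 among detected genes, and 1281 of them, 5.75%, had an SD of 1 or more. After normexp background correction that count was 255. Over 292 probes printed as 10 spots each, the SD of the single spots within 1 array had a median of 0.05. For the same probes, the SD between the vehicle arrays of the probe's 1 value per array had a median of 0.12. These are SDs of unlike quantities and are not directly comparable. The first value covers noise between spots only, and not labelling, hybridisation or slide. Bright genes varied least, with a median SD of 0.14 over 2731 genes against 0.32 over the 19558 other detected genes. A total of 2 bright genes had an SD of 1 or more. Of the 1281 variable genes, 353 were well above background on all 6 arrays and 928 were not on at least 1, so most of the large spreads include values near background. Among the 1281, vehicle 2 had the highest value for 364 genes, more than any other array, and vehicle 6 the lowest for 342. The spread was not limited to vehicle arrays: 61.7% of the 1281 also had an SD of 1 or more within the treated groups, against 5.82% of all detected genes.

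**Figure D1:**
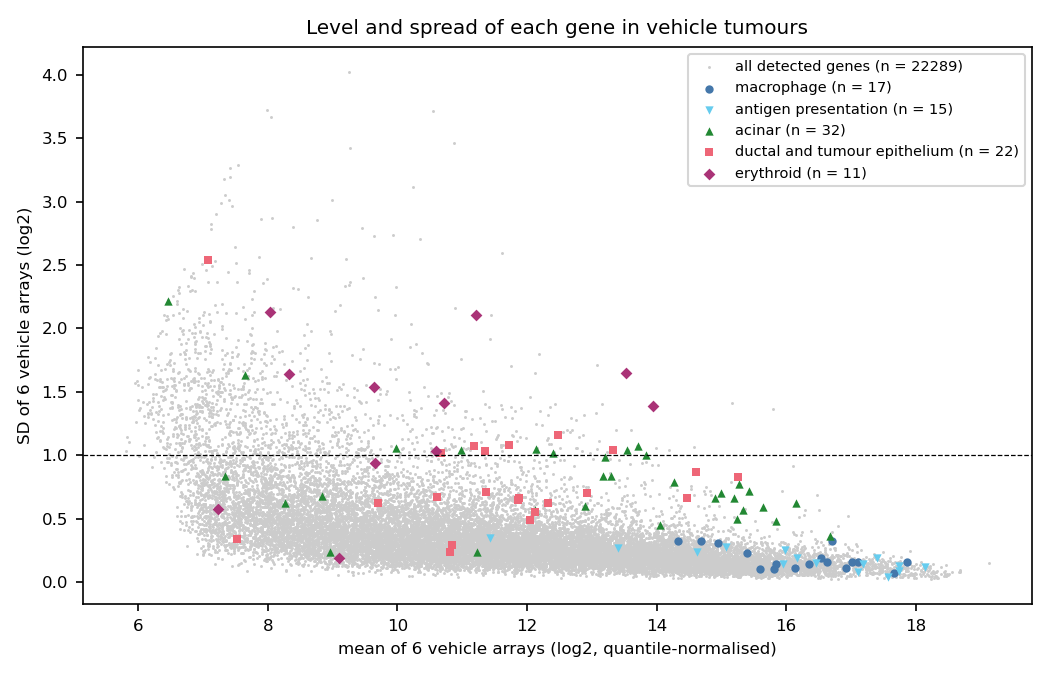
Each grey point is 1 of 22289 detected genes, with its mean over the 6 vehicle arrays on the x axis and its SD on the y axis (both log2); coloured points are members of 5 lists and the dashed line marks an SD of 1. The macrophage and antigen presentation members lie at the bright, steady end, while 8 of the 11 detected erythroid members lie above the line.

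Of 601 genes on 48 lists of cell type markers and pathways, 565 were detected, beside 81.6% of all genes, and 138 were bright, beside 10.0%. The lists hold well-known genes of leukocytes, epithelium, stroma and pancreas and are no sample of all genes.

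Genes of the target integrin and of macrophages were bright, and varied about as little as bright genes in general. The median SD was 0.16 over the macrophage members, beside 0.14 over all bright genes. Itgam, the CD11b chain (probe at chr7:135261755-135261814, mm9), gave 17.74, 17.82, 17.40, 17.68, 17.61 and 17.74 on vehicle 1 to 6, a mean of 17.66 ± 0.15 (SD, n = 6). A second Itgam probe gave 16.56 ± 0.19, so both probes were bright and varied little. Itgb2, the CD18 chain (chr10:77027978-77028037), gave 17.75, 17.42, 17.62, 17.42, 17.51 and 17.55. C1qa, a chain of the complement component C1q made by tissue macrophages (chr4:136452409-136452468), gave 17.06, 16.82, 17.29, 16.89, 16.97 and 17.04. The range over the arrays was 0.42 for Itgam, 0.33 for Itgb2 and 0.46 for C1qa. The Itgam spot on vehicle 3, the lowest, was called an outlier by the scanner software, and without that array the SD was 0.08 for Itgam and 0.10 for C1qa. All 17 macrophage members were well above background on all 6 arrays and 15 were bright. They included C1qb at 17.86 ± 0.16, the lipoprotein gene Apoe at 17.66 ± 0.07 (SD 0.04 without vehicle 2), the Fc receptor gene Fcgr3 at 17.11 ± 0.16, the growth factor receptor gene Csf1r at 16.93 ± 0.11 and the lysosomal gene Cd68 at 16.54 ± 0.19. The members that were not bright were Fcgr1 at 14.33 and the scavenger receptor gene Msr1 at 14.68. The mean over the macrophage list ran only from 16.09 on vehicle 2 to 16.34 on vehicle 6, with an SD of 0.10. The pan-leukocyte list, which holds the CD45 gene Ptprc, was bright in all 6 members by the chosen probes, and vehicle 2 was lowest for 5 of them. The SD of its mean, 0.10, became 0.05 without vehicle 2. Some of these calls depend on the probe: Cd52 gave 16.78 by its chosen probe and 8.59 by its other. On the macrophage list C1qc gave 16.63 and 10.57 in the same way.

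Other myeloid lists were detected in full but differed in steadiness. All 8 monocyte genes were detected, with Fn1 at 17.13 and Ly6c2, part of the antigen of inflammatory monocytes, at 15.03 ± 0.19. The chemokine receptor gene Ccr2 gave 13.34 ± 0.31 (SD 0.17 without vehicle 2), and the chitinase-like gene Chil3 had the largest SD of the list, 0.60. All 16 granulocyte genes were detected, and 5 were bright (Csf3r, Il1r2, Retnlg, Mmp9 and Lcn2). Csf3r, the G-CSF receptor gene, gave 17.36 ± 0.12 and the decoy receptor gene Il1r2 gave 15.92 ± 0.09. The SD was 1 or more for 2 members, both genes of granule proteins. Ngp, which encodes neutrophilic granule protein, gave 12.57, 11.86, 12.20, 13.39, 11.11 and 9.39, an SD of 1.38. Camp, the cathelicidin gene, gave 11.57, 11.47, 11.59, 13.31, 11.76 and 9.94, an SD of 1.07. Both genes were highest on vehicle 4 and lowest on vehicle 6. Lcn2, which neutrophils and epithelium both make, gave 15.15, 16.29, 15.11, 15.74, 14.40 and 14.21, and S100a8, a calprotectin subunit gene, gave 11.98 ± 0.85. Ly6g, the standard marker gene of mouse neutrophils, gave 10.37 ± 0.12. Dendritic cell genes were steadier, with Itgax, the CD11c gene, at 15.51 ± 0.17, Clec9a at 14.79 ± 0.27 and Cd209a at 15.20 ± 0.52. Siglech gave 16.52 by its brightest probe and at most 10.70 by its other 2 probes, so its brightness depends on the probe chosen.

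Antigen presentation genes were also mostly bright and steady: 15 of 15 were detected, 12 were bright and none had an SD of 1 or more. Cd74, the invariant chain gene of MHC class II, gave 18.31, 17.94, 18.14, 18.16, 18.12 and 18.20. H2-Eb1, a class II beta chain gene, ran from 17.52 to 17.63, an SD of 0.04. The class I genes H2-D1 and H2-K1 gave 17.75 ± 0.13 and 17.18 ± 0.14, and the class II transactivator gene Ciita gave 15.95 ± 0.14. The dimmest member was Tap2, a subunit gene of the peptide transporter, at 11.43 ± 0.35. Vehicle 2 was lowest for 10 of the 15 members, although the list mean differed by only 0.30 between its lowest and highest array.

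Lymphoid genes lay above the middle of the brightness range, and most were short of bright. By mean level among all genes, the median percentile was 71.7 for T cell, 72.8 for B cell and 64.8 for NK and cytotoxic cell members. All 12 T cell genes were well above background on all 6 arrays and none was bright. Cd4 gave 14.11 ± 0.24, Cd3e gave 13.03 ± 0.34, and Zap70, a kinase of T cell receptor signalling, gave 14.49 ± 0.27. Cd8a varied most, at 11.36, 9.54, 12.93, 10.52, 11.77 and 10.70, an SD of 1.17, and vehicle 3 was highest and vehicle 2 lowest. A second Cd8a probe had an SD of 0.30. Cd8b1, which encodes the partner chain, gave 13.04 ± 0.21 (SD 0.07 without vehicle 2) and was highest on vehicle 2. The chosen probes of the CD8 chains thus differed in their order of arrays. Since the Cd8a probes also differ in spread, this does not show that the chains themselves differed. The T cell list mean was 12.99 on vehicle 3 and 12.38 to 12.52 on the other arrays. Foxp3, the lineage factor gene of regulatory T cells, gave 13.21 ± 0.23. Among 10 cytotoxic and NK cell genes, the perforin gene Prf1 gave 13.84 ± 0.22 and Gzma gave 10.98 ± 0.95, while Gzmb was well above background on 1 array.

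B cell genes varied more and together. Cd79a, a chain of the B cell receptor complex, gave 13.25, 10.63, 13.68, 13.72, 12.58 and 12.91. Vehicle 2 was its lowest array, and the lowest for 8 of the 10 genes of the list. Cxcr5, the receptor gene that guides B cells into follicles, had the same low value on vehicle 2: 11.91, 9.31, 12.77, 13.04, 10.88 and 11.76. Ms4a1, which encodes CD20, was an exception, from 14.51 to 14.65, although its second probe had an SD of 1.60. The B cell list mean was 12.03 on vehicle 2 and 12.92 to 13.91 on the others, and its SD of 0.68 became 0.44 without vehicle 2. Plasma cell genes were also lowest on vehicle 2 by list mean: Jchain, the joining chain gene of secreted antibodies, gave 14.83, 12.49, 13.72, 13.85, 13.75 and 14.26. Mast cell genes went the other way, and vehicle 2 was highest for 9 of 10 detected members. The SD of the list mean, 0.60, became 0.35 without vehicle 2. Mcpt1, a mucosal mast cell protease gene, gave 13.85, 14.47, 13.62, 12.11, 11.87 and 13.54, and Cpa3, the mast cell carboxypeptidase gene, gave 10.67, 10.95, 9.55, 9.27, 8.19 and 9.48.

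The most variable cell type lists were those of red blood cell precursors and of spleen red pulp macrophages, and both were highest on vehicle 3. Red pulp macrophages clear aged red cells and recycle their iron. Hba-a2, an alpha globin gene, gave 12.51, 12.43, 16.18, 14.62, 13.72 and 11.75, an SD of 1.65. Hbb-bt, a beta globin gene, gave 10.44, 9.62, 14.37, 12.57, 11.72 and 8.56, an SD of 2.11. Alas2, which encodes the first enzyme of haem synthesis in red cell precursors, gave 8.19, 8.68, 12.40, 10.40, 9.17 and 9.02. For all of these vehicle 3 was highest and vehicle 4 the next. Ahsp, the alpha globin chaperone gene, gave 7.49, 6.64, 11.28, 8.85, 8.28 and 7.43. Klf1, a transcription factor gene of the lineage, gave 9.10 ± 0.19 and did not share this order, although its second probe had an SD of 2.33. Of the 11 detected erythroid genes, 8 had an SD of 1 or more, beside 5.75% of all detected genes, and 9 were highest on vehicle 3. The list mean was 12.27 on vehicle 3 and 9.07 to 10.77 on the other arrays, and its SD of 1.22 became 0.74 without vehicle 3.

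Spic, the transcription factor gene that red pulp macrophages require, gave 12.23, 11.74, 15.23, 13.62, 12.45 and 12.05. Slc40a1, the iron exporter gene, gave 10.46, 10.32, 13.46, 11.78, 10.83 and 10.02. Cd5l, a gene of tissue macrophages, gave 12.29, 12.81, 14.90, 12.52, 13.25 and 11.45. Vcam1, an adhesion molecule gene, completed the list with 15.42 on vehicle 3 and 13.33 to 14.30 elsewhere, so all 4 members were highest on the same array. Without vehicle 3 the SD of the list mean went from 1.09 to 0.49. Itgad, which encodes CD11d, a further partner chain of Itgb2 carried by splenic macrophages, gave 9.37, 8.80, 14.38, 12.52, 10.76 and 9.53, an SD of 2.16. Its second probe had an SD of 2.37. Kcnj16, a potassium channel gene among the 20 most variable named genes, followed the same order at the top, with 13.44 on vehicle 3 and 10.51 on vehicle 4. The eotaxin receptor gene Ccr3 gave 10.81, 11.38, 13.53, 11.95, 11.69 and 10.47. The T cell and B cell list means were also highest on vehicle 3, and the part of spleen tissue or blood in these values was not tested.

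**Figure D2:**
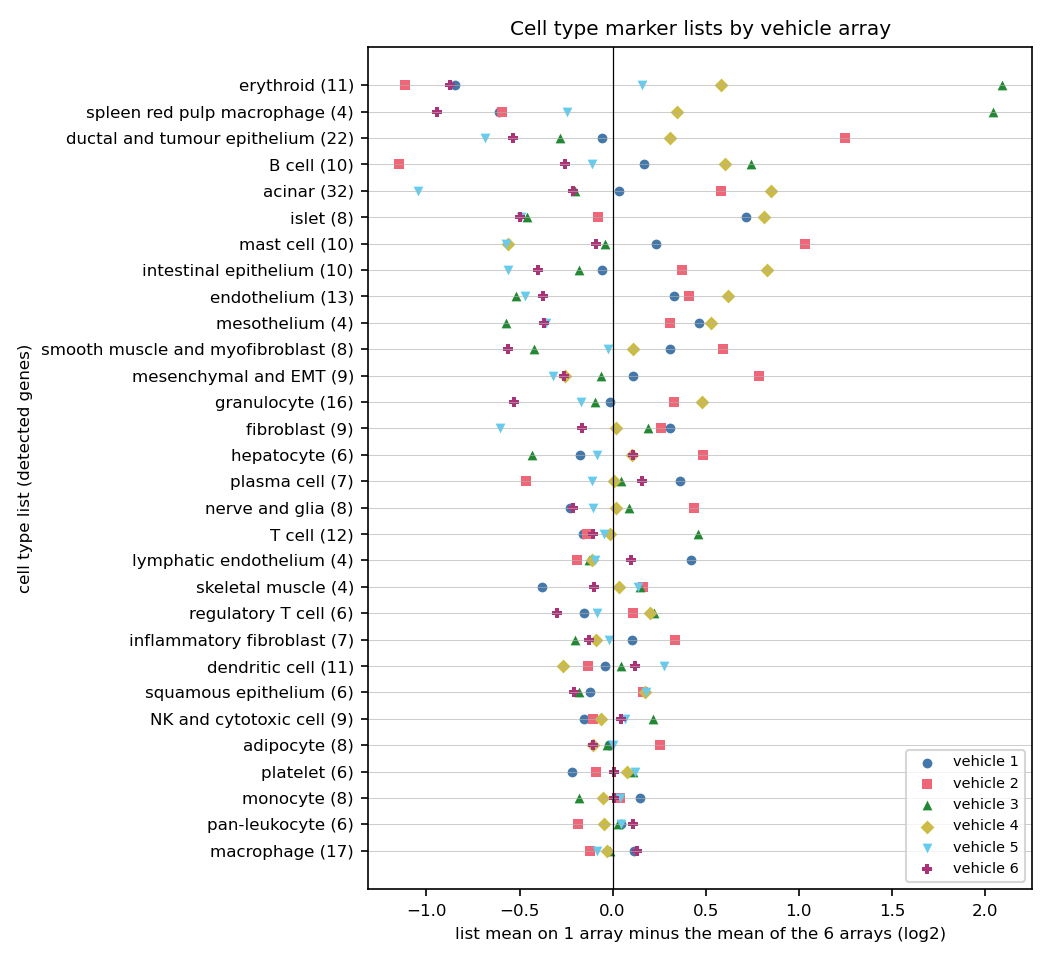
Each row is a cell type list, with the number of detected genes in brackets, and each symbol is 1 vehicle array; the x axis gives the list mean on that array minus the mean of the 6 arrays (log2). Vehicle 3 lies more than 2 above the mean for the erythroid and red pulp lists, vehicle 2 lies above it for ductal and tumour epithelium and mast cells and below it for B cells, and the macrophage list has the narrowest range.

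Epithelial and tumour genes were present on all arrays and most often highest on vehicle 2. Krt19, a keratin gene of ductal epithelium (chr11:100002392-100002451), gave 13.30, 15.15, 13.10, 13.49, 13.01 and 11.94, a mean of 13.33 ± 1.04 (SD, n = 6). Without vehicle 2 its SD was 0.60. Krt8, the simple epithelial keratin gene, gave 15.31, 16.57, 15.13, 15.75, 14.49 and 14.33. Vehicle 2 was highest for both, and vehicle 6 lowest. Muc1, a membrane mucin gene, gave 12.16, 14.57, 12.16, 12.86, 12.01 and 11.13, an SD of 1.16 that became 0.62 without vehicle 2. Tspan8, a tetraspanin gene, gave 12.08, 13.61, 11.14, 11.99, 10.64 and 10.95. Lgals4, an epithelial galectin gene, gave 14.25, 15.63, 14.22, 14.86, 14.04 and 13.84. Of 23 list members 22 were detected, 7 had an SD of 1 or more, and 20 of the 22 were highest on vehicle 2. Mmp7, a matrix protease gene of epithelial cells, was well above background on 3 arrays and reached 10.65 on vehicle 2, an SD of 2.54. Cftr, the chloride channel gene of ducts, was not detected on any array. The list mean was 12.90 on vehicle 2 and 10.96 to 11.96 on the others, and its SD of 0.71 became 0.39 without vehicle 2.

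Among 18 tumour driver and p53 target genes all were well above background on every array. Cdkn1a, the p21 gene, gave 16.73 ± 0.13, Smad4 gave 15.73 ± 0.07, Myc gave 15.61 ± 0.31 and Trp53 gave 15.41 ± 0.15. Cdkn2a, the p16 and p19Arf gene, was the variable member: it gave 10.90, 13.29, 11.10, 11.49, 10.33 and 9.22, an SD of 1.35 that became 0.88 without vehicle 2. Its order, highest on vehicle 2 and lowest on vehicle 6, was that of Krt19. Cdkn2b, its neighbour, gave 11.07, 12.80, 11.26, 11.85, 11.00 and 10.54. A second Cdkn2a probe averaged 5.15 and was well above background on 1 array. Gata6, a gene of the classical tumour programme, gave 9.75 ± 0.81 and Egfr gave 11.43 ± 0.21.

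Mesenchymal and squamous genes were mixed. Vim, the vimentin gene that many leukocytes and stromal cells also express, gave 16.68 ± 0.09, while the transcription factor genes Snai1, Snai2, Twist1 and Twist2 had means of 6.88, 6.34, 6.10 and 7.62. Prrx1, a mesenchymal homeobox gene, gave 7.38, 10.72, 9.27, 8.87, 7.42 and 7.11, and Cdh2, the N-cadherin gene, gave 12.64 on vehicle 2 and 11.10 to 11.65 elsewhere. Of 7 squamous genes Krt6a was not detected, and Krt5 and Krt14 had means of 9.68 and 8.90. Trp63, the squamous lineage factor gene, gave 17.72 ± 0.07 by its brightest probe, but its 3 other probes averaged 4.60 to 5.44 and only 1 of their spots was well above background. The bright value thus belongs to 1 probe of 4.

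Genes of the normal pancreas were widely detected. All 32 acinar genes were detected, 11 were bright, and 9 had an SD of 1 or more. Amy2a5, a pancreatic amylase gene, gave 16.72, 16.90, 16.51, 17.09, 16.05 and 16.77. Ctrb1, the chymotrypsinogen gene, gave 16.25, 16.54, 16.10, 17.00, 15.17 and 15.90. Both were highest on vehicle 4 and lowest on vehicle 5. Cel, the bile salt lipase gene, gave 13.36, 14.87, 12.78, 15.07, 12.46 and 13.69, an SD of 1.07. Across the list, vehicle 4 was highest for 19 genes and vehicle 5 lowest for 26. The list mean ran from 11.74 on vehicle 5 to 13.63 on vehicle 4. Transcription factor genes of acinar cells were mixed: Ptf1a gave 8.96 ± 0.24, Rbpjl gave 11.23 ± 0.24 and Bhlha15 gave 8.27 ± 0.62, while Nr5a2 gave 4.57, 7.45, 8.01, 9.66, 4.52 and 4.54. Nr5a2 was highest on vehicle 4, as the list mean was, and was well above background on 3 arrays. The Reg genes, which acinar cells make in an inflamed pancreas, were likewise highest on vehicle 4 and lowest on vehicle 5 for Reg3a, Reg3b and Reg3g, with means of 12.78, 12.80 and 11.77.

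Islet genes split by hormone. Ins1, a mouse insulin gene (chr19:52339385-52339444), gave 15.67, 10.02, 10.03, 14.09, 10.35 and 9.50, an SD of 2.60, the largest among named genes well above background on all 6 arrays without an outlier spot. Ins2 (chr7:149864655-149864714) gave 15.93, 12.26, 11.82, 14.46, 12.23 and 11.79. Iapp, the gene of amylin, which beta cells secrete with insulin, gave 11.59, 5.09, 4.71, 9.99, 5.36 and 5.29. For these 3 genes vehicle 1 and 4 lay above the other 4 arrays, with no overlap. Sst, the somatostatin gene of delta cells, gave 11.46 on vehicle 4 and 4.53 to 4.62 on the others. Iapp and Sst were well above background on fewer than 3 arrays, short of the rule for a detected gene. Gcg, the glucagon gene, gave 9.77 ± 0.39 and did not vary with the insulin genes. Pdx1, a factor of both beta cells and ductal progenitors, instead followed the epithelial order, with 9.01, 12.46, 9.14, 10.63, 9.29 and 8.43. Vehicle 1 is the only vehicle array on slide 1: with the slide difference removed by a fit on all 16 arrays, Ins1 had an SD of 1.99. Of 14 islet genes 8 were detected, and Neurod1, a neuroendocrine factor gene, was not detected on any array.

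Collagen genes were detected about as often as genes in general. Of 31 collagen genes 26 were detected, 83.9% beside 81.6% of all genes. None was bright, beside 10.0% of all genes, and Col4a6 was not detected on any array. Col1a1, a chain of type I collagen (chr11:94814188-94814247), gave 13.80, 14.52, 14.05, 14.12, 13.52 and 13.31, a mean of 13.89 ± 0.44 (SD, n = 6). Its 3 other probes averaged 6.39, 10.98 and 12.55. Col1a2 gave 13.90 ± 0.49 and Col3a1, the type III collagen gene, gave 14.34 ± 0.41. These 3 genes were lowest on vehicle 5 or 6, and all other probes of Col1a2 and Col3a1 were at least 4 units dimmer. Col4a1, a basement membrane collagen gene, gave 13.34, 14.04, 11.83, 13.75, 11.82 and 11.24, an SD of 1.18. Col6a1, a chain of the beaded filament collagen, gave 12.99, 14.52, 11.90, 13.55, 11.77 and 11.44. These genes were highest on vehicle 2, followed by vehicle 4 and 1. The collagen list mean was 11.65 on vehicle 2 and 10.76 to 11.26 on the others, and its SD of 0.34 became 0.22 without vehicle 2.

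Fn1, Tgfbi, Thbs1 and Spp1, matrix genes that macrophages also make, were bright and steady, as bright genes in general were. Fn1, the fibronectin gene, gave 17.29, 17.20, 16.92, 17.01, 17.23 and 17.15, and its other 3 probes averaged 14.64 to 17.01. Tgfbi, a matrix adhesion protein gene, gave 16.35 ± 0.07, Thbs1, the thrombospondin gene, gave 16.60 ± 0.15 and Spp1, the osteopontin gene, gave 15.47 ± 0.18. Several other matrix genes were dimmer and more variable. The part of cell type in this difference was not tested. Dcn, the decorin gene, gave 12.97, 11.52, 11.73, 12.45, 10.55 and 11.83, while Lum, the lumican gene, and Dpt, the dermatopontin gene, were well above background on 2 and 1 of the 6 arrays. Fbln2, a fibulin gene, gave 13.50, 15.23, 13.34, 14.05, 11.93 and 12.25, an SD of 1.20. Ctgf, a matricellular gene induced by mechanical and TGF-beta signals, gave 12.61, 14.10, 11.90, 12.87, 11.33 and 11.08, and its relative Cyr61 gave 12.78, 12.81, 9.33, 11.43, 10.10 and 11.62. Vehicle 2 was highest for all 3, and for 20 of the 30 detected genes of the list. Has2, a hyaluronan synthase gene, gave 16.62, 17.35, 16.98, 16.05, 16.11 and 15.98, whereas Has1 gave 8.57 ± 0.23.

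Fibroblast surface genes were less bright: Pdgfra gave 7.78 ± 0.18, Fap, the fibroblast activation protein gene, gave 11.23 ± 0.33 and Thy1, which T cells also carry, gave 13.64 ± 0.48. Acta2, the smooth muscle actin gene, gave 16.72 by its brightest probe and at most 11.12 by its 3 other probes. Myh11, the smooth muscle myosin gene, gave 10.51 ± 0.25, and Rgs5, a pericyte gene, gave 8.20, 10.41, 4.53, 8.53, 6.25 and 4.55. Endothelial genes lay somewhat below the middle of the brightness range, at a median percentile of 41.2 among all genes. Of 14 genes 13 were detected, beside 81.6% of all genes, and none was bright, beside 10.0%. Tek, the angiopoietin receptor gene, was not detected, Cdh5, the VE-cadherin gene, averaged 7.54, and Vwf, which platelets also hold, averaged 12.64. Robo4, an endothelial guidance receptor gene, gave 10.14, 9.51, 5.13, 10.75, 4.60 and 4.59, and Egfl7 gave 12.49, 12.13, 10.70, 12.24, 10.59 and 11.24. Both were higher on vehicle 1, 2 and 4 than on 3, 5 and 6. The endothelial list mean was 9.89, 9.97 and 10.17 against 9.04, 9.09 and 9.18, but it includes both genes and is no separate support. Of the 13 detected members, 4 were highest on vehicle 4 and 2 lowest on vehicle 3, the top and bottom arrays of the list mean. The SD of that mean, 0.51, became 0.30 after normexp background correction.

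Protease and inhibitor genes spanned the range of brightness. Mmp12, the macrophage elastase gene, gave 17.66, 17.38, 17.42, 17.37, 17.00 and 17.36. Mmp19 gave 15.94 ± 0.24, Mmp9, a gelatinase gene of myeloid cells, gave 15.39 ± 0.41, and Mmp14, a membrane-bound protease gene, gave 14.39 ± 0.18. The inhibitor genes Timp2 and Timp1 gave 16.86 ± 0.13 and 15.01 ± 0.26. Mmp10 was not detected on any array, and Mmp3 and Mmp8 averaged 8.80 and 8.77. Besides Mmp7, Adamts1, a secreted protease gene, passed an SD of 1, with 9.43, 10.93, 10.01, 10.34, 7.81 and 8.41. Timp3, an inhibitor that binds to matrix, gave 12.65 ± 0.81 and was highest on vehicle 2.

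**Figure D3:**
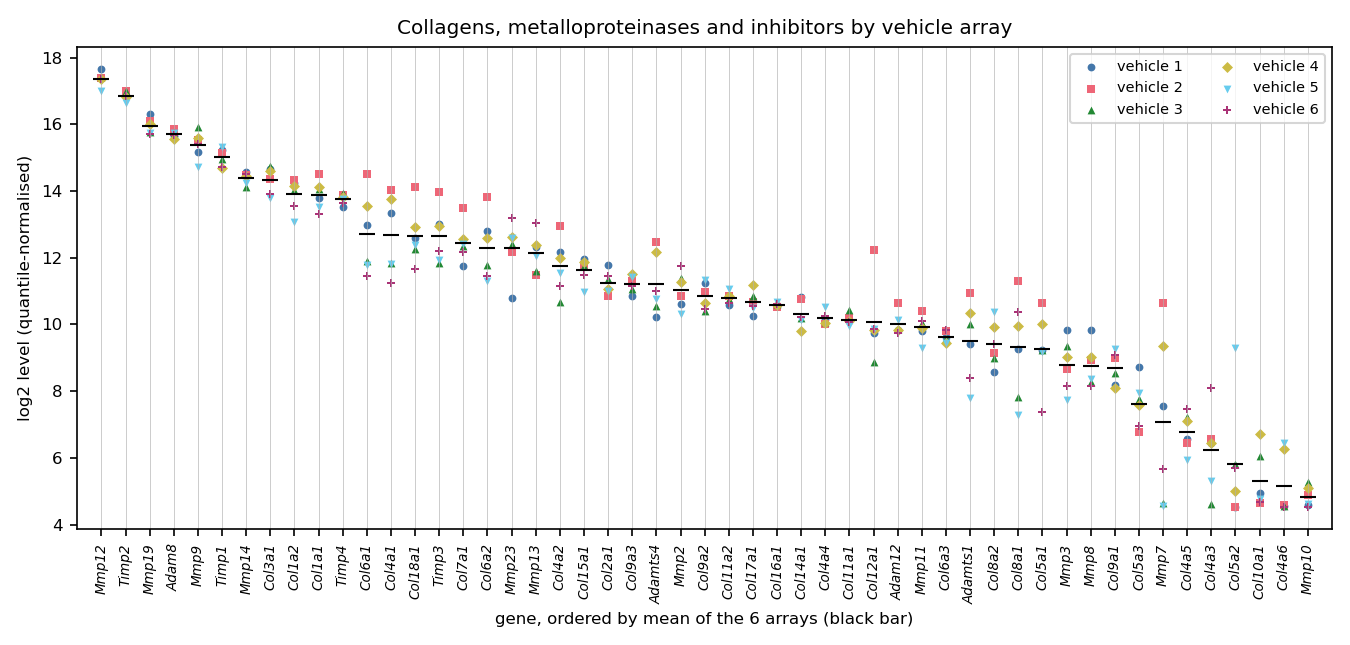
Each column is a collagen, metalloproteinase or inhibitor gene ordered by its mean, and each symbol is its log2 level on 1 of the 6 vehicle arrays; the black bar is the mean. The brightest columns, Mmp12 and Timp2, are tight, while Mmp7, Col8a1, Col6a1 and Col4a1 spread by more than 2 units.

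Chemokine ligands were bright for the CC family. Of 21 CC ligand genes 20 were detected and 9 were bright. Ccl6 and Ccl9, which mouse myeloid cells make, gave 16.60 ± 0.11 and 16.46 ± 0.09. Ccl17, a ligand of CCR4, gave 16.29, 16.39, 16.31, 16.24, 16.42 and 16.47, and Ccl8 gave 16.11, 16.06, 15.75, 16.14, 15.81 and 16.21. Ccl24, an eotaxin gene, gave 15.64 ± 0.22. The monocyte attractant genes Ccl2, Ccl7 and Ccl12, ligands of CCR2, gave 14.87 ± 0.19, 14.18 ± 0.24 and 14.14 ± 0.24, and Ccl3, Ccl4 and Ccl5, further inflammatory chemokine genes, gave 15.08 ± 0.13, 15.39 ± 0.08 and 15.15 ± 0.13. All of these varied by less than the median detected gene.

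At the dim end Ccl20, the CCR6 ligand gene, was not detected on any array. The CCR7 ligand genes Ccl19 and Ccl21a gave 10.08 ± 0.33 and 9.65 ± 0.80, with Ccl21a at 11.18 on vehicle 1 and 9.09 to 9.85 elsewhere. Ccl22, the other CCR4 ligand gene, gave 7.61, 7.40, 5.37, 7.80, 8.58 and 8.02, and Ccl26 gave 8.65, 8.42, 7.64, 9.15, 8.52 and 11.39. The remaining CC genes had means between 8.65 for Ccl11 and 13.41 for Ccl25, with Ccl1 at 9.09, Ccl28 at 9.65 and Ccl27a at 10.86.

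Among 17 CXC, CX3C and XC ligand genes 15 were detected and 4 were bright. Cxcl11, named as a ligand gene of CXCR3, gave 17.52, 17.59, 17.46, 17.53, 17.60 and 17.51, and its second probe averaged 16.40. The other CXCR3 ligand genes differed: Cxcl10 gave 13.89, 14.65, 14.76, 14.99, 14.57 and 13.86, and Cxcl9 gave 10.89, 8.91, 11.76, 9.85, 11.41 and 10.35. Thus 1 of these 3 genes was steady and another had an SD of 1.05. Spot signal does not show whether a working protein was made from any of them. Cxcl16, a scavenger and adhesion chemokine gene, gave 17.36, 17.14, 17.30, 17.32, 17.18 and 17.41, and Pf4, also a platelet gene, gave 16.04 ± 0.17. Of the CXCR2 ligand genes, Cxcl1 gave 16.46, 16.70, 16.10, 16.56, 16.62 and 16.30, and Cxcl2 gave 14.75, 14.07, 13.12, 14.49, 14.30 and 14.64. Cxcl3, Cxcl5 and Ppbp, of the same group, averaged 9.79, 7.43 and 10.33. Cxcl12, the CXCR4 ligand gene of stromal cells, gave 11.65, 11.19, 11.14, 10.55, 10.40 and 11.16. Cxcl13, which draws B cells through CXCR5, gave 12.09, 9.82, 11.26, 11.58, 10.42 and 11.27, lowest on vehicle 2 as its receptor gene was. Cx3cl1, the fractalkine gene, gave 10.70, 12.46, 11.40, 11.32, 10.68 and 10.93, and Xcl1, a ligand made by cytotoxic lymphocytes, ran from 8.42 on vehicle 2 to 11.08 on vehicle 3. Cxcl14 gave 12.52 ± 0.12. Cxcl15 was not detected, and Cxcl17, at 10.09 on vehicle 2, was well above background on 2 arrays.

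Of 23 chemokine receptor genes 21 were detected and 3 were bright. Cxcr4 gave 16.78, 16.71, 16.78, 16.88, 16.78 and 16.84, Cx3cr1, the fractalkine receptor gene of monocytes and macrophages, gave 15.77, 15.88, 16.02, 15.96, 15.81 and 15.94, and Ccrl2 gave 15.99 ± 0.13. These were also steady. Ccr7 gave 14.07 ± 0.32, Ccr6 gave 13.73 ± 0.20, Cxcr3 gave 13.66 ± 0.48 and Ccr2, already described, lay beside them. Cxcr6, Ccr9, Ackr3 and Cxcr2 averaged 12.53, 12.50, 12.45 and 12.26. Cxcr2, the receptor gene of neutrophils, gave 13.44 on vehicle 2 and 11.60 to 12.25 on the others. Ackr3, a scavenging receptor gene for CXCL12, gave 12.92, 13.66, 11.91, 11.99, 12.46 and 11.76. Ccr1, Ccr10, Ccr8, Xcr1 and Ackr2 averaged 11.32, 11.18, 11.10, 11.10 and 10.20, and Ackr1 and Ackr4 averaged 9.35 and 8.09. Ccr4 and Cxcr1 were well above background on 2 and 1 of the 6 arrays. Only Ccr3 and Cxcr5, given above with the lists they moved beside, had an SD of 1 or more among the detected receptors.

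**Figure D4:**
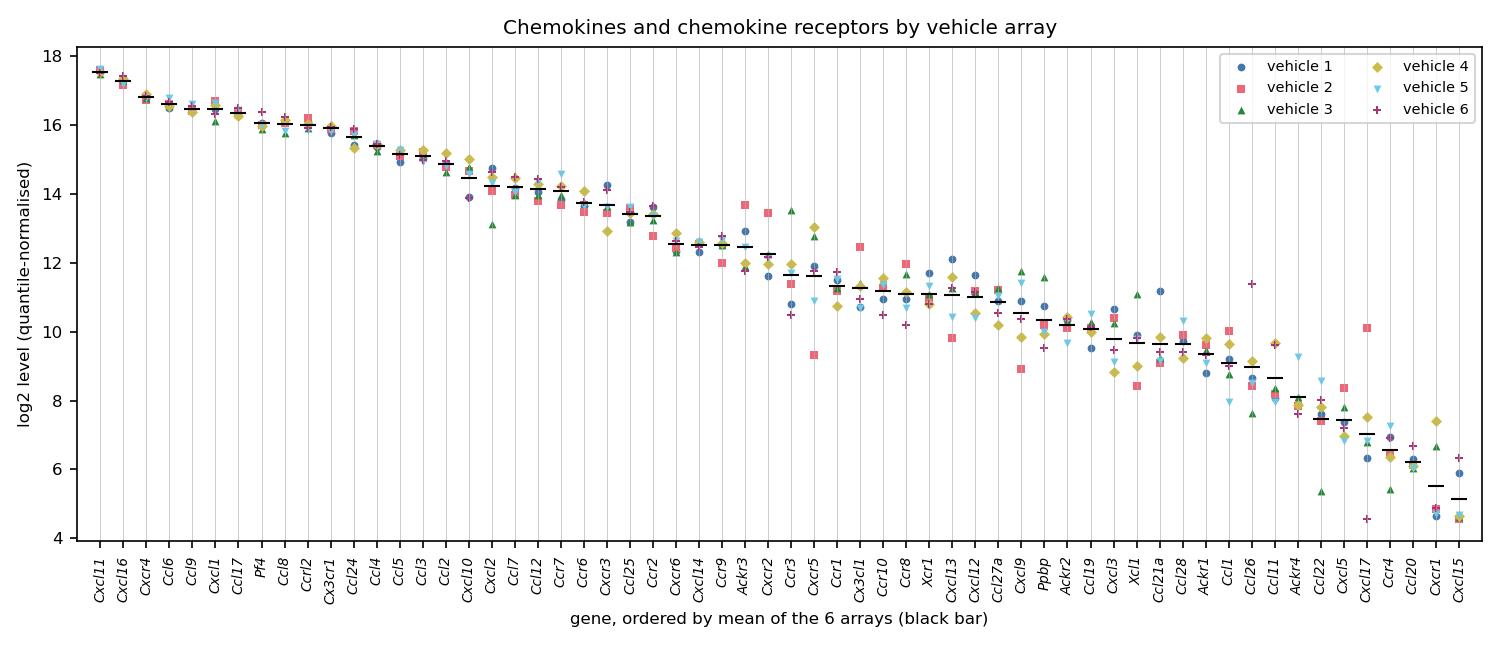
Each column is a chemokine or chemokine receptor gene named in the text, ordered by its mean over the 6 vehicle arrays (black bar), and each symbol is its log2 level on 1 array. Cxcl11, Cxcl16 and Cxcr4 head the order with tight points, and Cxcr5, Cxcl9, Ccr3 and Ccl26 are among the columns with the widest spread.

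Cytokine genes of activated myeloid cells were bright. Il1b gave 16.57, 16.35, 16.17, 16.60, 16.35 and 16.78, Il1rn, which encodes the antagonist of the same receptor, gave 16.58 ± 0.11, Osm gave 16.20 ± 0.16 and Tnf gave 15.68 ± 0.16. Tgfb1, Vegfa and Pdgfa gave 15.77 ± 0.09, 15.71 ± 0.31 and 15.28 ± 0.17. Csf1, the macrophage growth factor gene, gave 12.79 ± 0.47, and Il6 gave 12.14 ± 0.47. Of 32 genes 30 were detected. Il17a was not detected on any array, Csf2 was well above background on 1, and Ifng gave 9.30 ± 0.70. Ifnb1 and Il33 had an SD of 1.65 and 1.03. Checkpoint and suppression genes were all detected, 15 of 15, beside 81.6% of all genes. None had an SD of 1 or more, which in 15 genes is near the 5.75% of all detected genes. Lgals9 gave 15.11 ± 0.14, and Arg1, the arginase gene of suppressive myeloid cells, gave 15.50, 15.22, 14.33, 14.26, 15.07 and 14.84. Havcr2, the TIM-3 gene, gave 14.65 ± 0.15 and Entpd1, the CD39 gene, gave 14.24 ± 0.10. Cd274, the PD-L1 gene, gave 10.49 ± 0.27, Pdcd1, the PD-1 gene, gave 10.93 ± 0.22 and Ctla4 gave 10.52 ± 0.43. Nos2, the inducible nitric oxide synthase gene, gave 10.22 ± 0.44.

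Interferon-stimulated genes were low together on vehicle 2. Interferons switch on such genes through the complex ISGF3, which binds the interferon-stimulated response element. Promoter windows are shown for 3 of them as RefSeq gives them on GRCm38.p6, 5′ to 3′ on the gene's strand for the 250 bases before the start, with each match to GAAA, any 2 bases and GAAA again, on either strand, in capitals (overlapping matches run together).
Isg15 (chr4:156200819-156201068, minus strand): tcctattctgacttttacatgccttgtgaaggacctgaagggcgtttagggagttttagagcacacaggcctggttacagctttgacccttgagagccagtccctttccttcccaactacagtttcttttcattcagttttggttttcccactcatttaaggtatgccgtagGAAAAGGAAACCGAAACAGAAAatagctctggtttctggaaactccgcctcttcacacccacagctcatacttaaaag
Ifit1 (chr19:34640639-34640888, plus strand): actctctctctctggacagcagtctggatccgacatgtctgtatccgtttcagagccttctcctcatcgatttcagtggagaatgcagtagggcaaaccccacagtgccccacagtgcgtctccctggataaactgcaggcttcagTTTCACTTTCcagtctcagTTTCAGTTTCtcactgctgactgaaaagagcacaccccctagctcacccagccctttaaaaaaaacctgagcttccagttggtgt
Ifit3 (chr19:34583279-34583528, plus strand): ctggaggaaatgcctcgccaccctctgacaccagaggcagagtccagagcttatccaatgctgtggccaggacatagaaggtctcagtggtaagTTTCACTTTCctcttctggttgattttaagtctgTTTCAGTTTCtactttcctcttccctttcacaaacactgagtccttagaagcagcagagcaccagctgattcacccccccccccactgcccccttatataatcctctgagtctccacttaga

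Of 17 list members 13 matched a promoter in the RefSeq table and 9 of these held the motif, which 2.98% of all 32851 promoters held over the same length. Members were counted by gene, with a match in any promoter of the gene, and the share was counted by promoter. The counts are therefore not strictly alike. A match is a description of the letters and no evidence of binding in these tumours. Ifit3, of the family that binds foreign RNA, gave 14.33, 13.56, 14.76, 14.38, 15.19 and 14.37. Isg15, a ubiquitin-like modifier gene, gave 12.01, 11.83, 12.82, 12.15, 12.72 and 12.23, and Ifit1 gave 11.26, 9.97, 11.04, 11.27, 11.98 and 11.55. Each was lowest on vehicle 2 and near its top on vehicle 5. Irf7, the amplifying transcription factor gene, gave 15.88, 15.11, 16.22, 15.89, 16.26 and 15.75, and Usp18, which encodes the protease that removes ISG15, gave 13.74, 12.90, 14.36, 13.64, 14.90 and 13.86. Oas1a, a sensor gene for double-stranded RNA, gave 15.54 ± 0.28 (SD 0.17 without vehicle 2), and Ifi44 gave 9.02 on vehicle 2 and 10.75 to 11.19 on the others. All 17 members were detected, none had an SD of 1 or more, and all 17 were lowest on vehicle 2. The list mean was 12.28 on vehicle 2 and 13.02 to 13.53 on the others, and its SD of 0.43 became 0.19 without vehicle 2. The antigen presentation and pan-leukocyte lists were lowest on the same array, by less, and the epithelial list was highest there. The part of cell composition in the interferon values was not tested.

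Hypoxia and glycolysis genes were all detected, 7 of 15 were bright, and vehicle 2 was highest for 11. Low oxygen acts on such genes through hypoxia-inducible factors, which bind response elements with a core such as ACGTG. Promoter windows of 3 members follow in the same form, with GACGTG on either strand in capitals. Only this longer form was searched, so other copies of ACGTG, as in the Ldha window, are in lower case and not counted.
Slc2a1 (chr4:119108495-119108744, plus strand): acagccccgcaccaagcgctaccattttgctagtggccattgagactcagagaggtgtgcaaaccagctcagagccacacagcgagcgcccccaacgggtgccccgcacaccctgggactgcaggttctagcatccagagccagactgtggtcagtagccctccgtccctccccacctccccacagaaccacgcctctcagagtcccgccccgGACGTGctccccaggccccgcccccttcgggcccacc
Ldha (chr7:46845554-46845803, plus strand): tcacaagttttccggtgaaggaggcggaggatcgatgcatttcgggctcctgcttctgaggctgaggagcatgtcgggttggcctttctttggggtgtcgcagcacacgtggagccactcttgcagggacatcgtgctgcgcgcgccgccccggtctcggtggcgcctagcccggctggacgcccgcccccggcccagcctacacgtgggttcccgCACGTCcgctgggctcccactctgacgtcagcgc
Egln3 (chr12:54203875-54204124, minus strand): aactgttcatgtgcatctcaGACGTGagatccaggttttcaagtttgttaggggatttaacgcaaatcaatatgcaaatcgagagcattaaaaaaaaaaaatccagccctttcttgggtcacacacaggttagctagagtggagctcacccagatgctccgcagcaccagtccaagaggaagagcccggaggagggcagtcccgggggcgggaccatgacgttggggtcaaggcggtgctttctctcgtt

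GACGTG was in 7 of the 14 members with a promoter in the table and in 5.2% of all promoters, again counted by gene and by promoter. Ldha, a lactate dehydrogenase gene, gave 17.20, 17.26, 17.26, 17.11, 17.34 and 17.19, and Slc2a1, the glucose transporter gene, gave 14.20, 15.06, 14.70, 14.40, 14.53 and 14.53. Egln3, which encodes an oxygen-sensing hydroxylase, gave 10.58, 11.88, 9.98, 10.13, 10.28 and 10.63. Car9, a carbonic anhydrase gene used as a hypoxia marker, gave 13.41, 14.75, 13.58, 13.62, 13.24 and 13.23. So the glycolytic enzyme gene was steady, while Egln3 and Car9 were highest on vehicle 2. The bright members included Gapdh at 18.25 ± 0.08 and Eno1 at 17.04 ± 0.13. The list mean was 15.10 on vehicle 2 and 14.45 to 14.78 on the others.

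Lists of neighbouring tissues were dim to middling. Of 7 hepatocyte genes 6 were detected and Alb, the albumin gene, was well above background on 1 array, while Trf, the transferrin gene that other cells also express, was bright at 17.03 ± 0.11. All 10 intestinal genes were detected, with Fabp1, a fatty acid binding protein gene, and Lgr5, a stem cell gene, at an SD of 1.77 and 1.23, and the list mean was highest on vehicle 4 and lowest on vehicle 5 as that of acinar genes was. Msln, the mesothelin gene of mesothelium and of some pancreatic tumours, gave 13.98, 15.79, 13.52, 14.56, 12.92 and 13.19, highest on vehicle 2. Lrrn4, another mesothelial gene, was not detected on any array. The lists of nerve and glia (8 of 8 detected), adipocytes (8 of 8), lymphatic endothelium (4 of 4), platelets (6 of 6), inflammatory fibroblasts (7 of 7) and skeletal muscle (4 of 6) held no detected gene with an SD of 1 or more. The share over all detected genes was 5.75%, and none in lists this short is near it. Among the beta2 integrins and their ligands 12 of 13 were detected: Itgal, the CD11a gene, gave 14.23 ± 0.29, Icam1, an adhesion ligand gene, gave 14.68 ± 0.13, C3, the complement gene whose fragment binds CD11b, gave 15.36 ± 0.21, and Fgg, a fibrinogen chain gene, was not detected.

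Proliferation genes varied by nearly as much as detected genes in general, with a median SD of 0.24 beside 0.29. All 20 were well above background on all arrays, beside 74.2% of all genes. None had an SD of 1 or more, which in 20 genes is near the 5.75% of all detected genes. Mki67, the proliferation marker gene, gave 13.44 ± 0.21, and the replication helicase genes Mcm3 and Mcm6 gave 15.31 ± 0.10 and 15.20 ± 0.11. Cdk1 varied most, at 10.69 ± 0.57. Immediate early genes, which cells induce within minutes of a stimulus or of tissue handling, were bright in 12 of 15. Fosb gave 17.91 ± 0.07, Fos gave 17.56 ± 0.14, Junb gave 16.68 ± 0.10 and Dusp1 gave 16.46 ± 0.12. The heat shock gene Hspa1b varied most, at 13.14 ± 0.67. Housekeeping genes had a list mean SD of 0.05. Xist, the X inactivation RNA gene, gave 15.98 ± 0.31, and the Y-linked genes Ddx3y, Eif2s3y and Uty were not detected on any array, beside the label Female. Kdm5d, also Y-linked, gave 13.20 by 1 probe, while its 5 other probes averaged 4.67 to 6.80.

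Probes of 1 gene could differ widely. Of 269 list genes with several probes, 36 had every other probe at least 4 units dimmer than the chosen one, and 9 of these were counted as bright. Among the 20 brightest genes of the table with a regular symbol, 18 had further probes and for 12 every further probe was at least 4 units dimmer. These genes were picked by their brightest probe, which favours such gaps. The brightest, Ulk3, an autophagy-related kinase gene, gave 19.13 by its chosen probe and 12.86 by the other.

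The 20 named genes with the largest SD included 8 chemosensory receptor genes. Olfr774, an odorant receptor gene (chr10:128675327-128675386), gave 7.28, 17.43, 8.26, 7.56, 7.41 and 7.60, and Vmn2r101, a vomeronasal receptor gene (chr17:19749208-19749267), gave 8.85, 9.05, 9.29, 18.12, 8.90 and 9.07. Feature Extraction called the single high spot an outlier in both cases, and leaving it out gave an SD of 0.38 for Olfr774 and 0.17 for Vmn2r101. A further 8 of the 20, namely Vmn1r101, Vmn1r104, Vmn1r114, Vmn1r121, Vmn1r124, Vmn1r183, Scgb2b7 and Spin2d, were high on vehicle 2, 3 and 5 and at the array's floor on vehicle 1, 4 and 6. The other 10 were Kcnj16, Robo4, Stfa1, Tspan6, Ins1, Cdr2l, Mmp7, Mmrn1, Irx3 and Scg2. Stfa1, a stefin gene of neutrophils, gave 7.91, 11.67, 4.65, 10.19, 4.63 and 8.33, Mmrn1, a gene of platelets and lymphatic vessels, gave 11.27 on vehicle 1 and 4.53 to 8.30 elsewhere, and Scg2, a secretogranin gene of endocrine cells, was highest on vehicle 1 and 4 as the insulin genes were. Irx3, a homeobox gene, was highest on vehicle 2. Cdr2l was at 4.54 on vehicle 6 and 8.59 to 11.83 elsewhere, and its SD of 2.55 became 1.25 without vehicle 6.

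Several receptor genes with the shared order have probes that are alike. Vomeronasal type 1 receptors form a large family of single-exon genes in clusters. The 60-base probes of a pair on chromosome 7 overlap on the genome, and those of another pair differ by a few bases, so neither pair gives independent measurements. Capitals mark the longest run that the probes of a pair share.
Vmn1r114 (mm9 chr7:23591372-23591431, minus strand): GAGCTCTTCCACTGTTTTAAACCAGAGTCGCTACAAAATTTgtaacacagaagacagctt
Vmn1r121 (mm9 chr7:23591391-23591450, minus strand): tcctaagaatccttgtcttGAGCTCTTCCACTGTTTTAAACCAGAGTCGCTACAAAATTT
Vmn1r124 (mm9 chr7:22044713-22044772, minus strand): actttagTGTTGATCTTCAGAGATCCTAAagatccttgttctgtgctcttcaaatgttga
Vmn1r183 (mm9 chr7:24840651-24840710, plus strand): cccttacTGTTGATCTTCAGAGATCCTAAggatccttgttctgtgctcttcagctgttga

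The shared run is 41 bases for the first pair and 22 for the second, whose probes are the same at 54 of 60 positions. Vmn1r121 gave 4.57, 8.99, 9.71, 4.54, 11.65 and 4.53, and Vmn1r183 gave 4.54, 10.27, 9.32, 4.55, 11.24 and 4.55. Vmn1r101 gave 12.31 on vehicle 5, 11.26 on vehicle 2 and at most 5.04 on vehicle 1, 4 and 6. Thus vehicle 5 was highest each time and 3 arrays lay at the floor. Chosen after these values were seen, the probes at least 1 unit higher on each of vehicle 2, 3 and 5 than on any of vehicle 1, 4 and 6 number 260 of 56605, and no test was made of them. Of these, 22.3% lie on chromosome 14, 15.0% on 7 and 13.1% on X, against 3.87%, 7.47% and 3.82% of all probes. None had an outlier spot on a vehicle array, and 84 of the 170 gene symbols among them are predicted or clone names. Over the 260 probes the mean was 9.40, 8.84 and 9.88 on vehicle 2, 3 and 5 and 6.08 to 6.24 on the others. The treated arrays held both states: the mean was 8.71 and 8.43 on replicates 3 and 4 at 48 h, 7.86 on replicate 1 at 10 days, and 6.41 to 6.53 on the other 7.

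**Figure D5:**
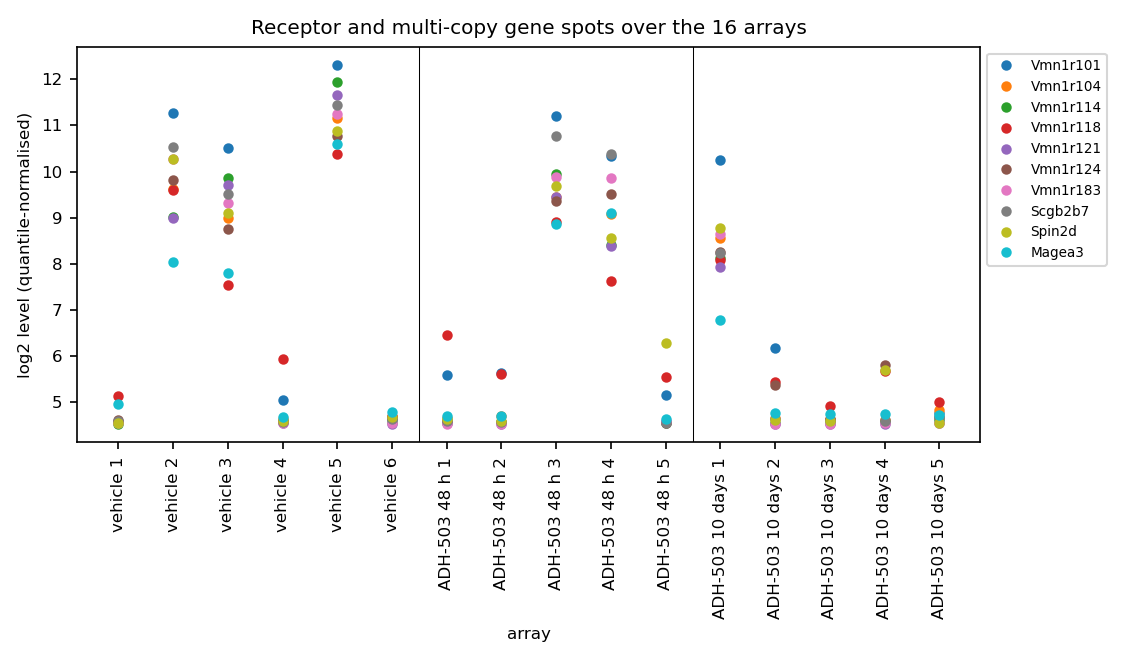
Each point is the log2 level of 1 of 10 receptor or multi-copy genes on 1 of the 16 arrays, with the vehicle arrays on the left and thin lines between the groups. The genes are high together on vehicle 2, 3 and 5 and on 3 treated arrays, and low together on the remaining 10.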

How the data were processed

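RNA of 16 tumour samples, amplified by whole-transcriptome amplification and labelled with Cy5, was hybridised to 1-colour Agilent mouse arrays, per the labels' protocols. The submitters' processing notes name Feature Extraction 11.5.1.1 as the software that made the deposited scanner intensities. The deposited log2 table is quantile-normalised, per its file name, and its sorted columns differ by at most 0.0043. Its scale was checked against each array's own processed intensity (lowest r = 0.998). Of its 56605 probes 46359 carry a symbol, giving 27308 genes. Probe coordinates are mm9, per the file headers.

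For each gene the probe with the highest mean over all 16 arrays was kept, and detection was read from the scanner's well-above-background mark of the same probe. A gene was detected with at least 3 of 6 such spots. Array values, means, SDs and list means over detected members were computed with pandas 2.3.3 and tested on simulated data. The design holds 1 group, so no test was made. Alternatives were the scanner signal relative to its 75th percentile, normexp (offset 50) with limma 3.58.1 in R 4.3.3, the slide difference removed, the median over probes, other filters and each array left out. Leaving out spots called outliers was added after the data were seen. Depth is not a read count here, and the number of arrays limits precision.

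The members and lists were chosen with earlier results of these data known. Named genes were the given markers, up to 4 brightest and 3 most variable genes of each list, those detected on no array, and the 20 most variable of all named genes. Other list members were named for their known role with their values seen. Of the genes listed, 2 (Ccl21b and Muc16) are not in the table. Some members of the lists are counted but not reported here by name.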

Additional observations from a re-analysis of the deposited data

Results flagged for a closer look

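Among 371 values examined over the 6 vehicle arrays (48 list means and 323 genes), 24 had 1 array far from the other 5 by Dixon's criterion at 95%. Chance alone gives about 1 in 20, and 24 of 371 is not far above that share. The flags are therefore given as a list, and no single one stands as a result. The genes examined also include Olfr774 and Vmn2r101, which were picked for their large SD. Olfr774 stood at 17.43 on vehicle 2 and Vmn2r101 at 18.12 on vehicle 4, both on spots that the scanner software called outliers.

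Vehicle 2 was the distant array most often. It was high for the adipocyte list mean (11.61), Car9 (14.75), Cdh2 (12.64), Cxcr2 (13.44) and Egln3 (11.88). It was low for Ccr9 (11.98), Cd79a (10.63), Ifi44 (9.02) and Mzb1 (9.83), a plasma cell gene.

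Vehicle 3 was high for the T cell list mean (12.99) and low for Ccl22 (5.37), Gata6 (8.16) and Kit (12.83), a mast cell receptor gene. Vehicle 4 was low for the mean of the checkpoint list (12.11), Flt3 (11.90), a dendritic cell receptor gene, and Mcpt2 (4.61), a mast cell protease gene. Vehicle 5 was high for Ackr4 (9.25) and Cnn1 (10.67), a smooth muscle gene, and low for Pdgfrb (6.87), a pericyte and fibroblast receptor gene, and Vim (16.49). Vehicle 1 was high for Ccl21a (11.18) and vehicle 6 for Trf (17.24).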

How the results depend on the processing

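The count of genes with an SD of 1 or more depended most on the handling of dim spots: 1281 became 255 after normexp, 353 among genes well above background on all 6 arrays and 2463 with no filter. It was 1362 from the scanner signal, 1253 with the slide removed, 1356 with the median over probes, 1277 without outlier spots, and 934 to 1174 with 1 array left out, lowest without vehicle 2. Genes well above background on all arrays were 20276, 20362 by any probe and 20322 to 20540 with 1 array left out. The number of lists whose mean had an SD of at least 0.5 was 9, between 6 (normexp) and 10 under the alternatives and 7 to 10 with 1 array left out. Detected list genes were 565, or 530 on all 6 arrays, and 553 to 563 with 1 array left out. Bright list genes were 138, between 137 and 145 under the alternatives and 135 to 138 with 1 array left out. After normexp the SD of the list mean was 1.05 for red pulp macrophages and 0.62 for ductal and tumour epithelium, and it went below 0.5 for endothelium (0.51 to 0.30), mast cells (0.60 to 0.47) and intestinal epithelium (0.52 to 0.38). Of 48 list means, the level moved by more than its SD over arrays for 36 with the median over probes, 27 with the median over members, 16 over all members and 10 with normexp. With the median over probes the mean went from 12.08 to 9.71 for fibroblasts, 11.09 to 9.48 for collagens, 11.81 to 9.89 for smooth muscle and 16.44 to 14.94 for pan-leukocyte genes. No paired analysis was possible because the vehicle arrays form a single group with no comparison. Brightness near background limits what the dim genes show.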
